A study of Drosophila melanogaster with 2 samples.

Results

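The genes described here make, receive and answer the steroid hormone ecdysone and the sesquiterpenoid juvenile hormone in larvae of the fruit fly Drosophila melanogaster. The 46 genes were chosen by name and sorted by role. For ecdysone these were 6 synthesis enzymes, 2 genes that control synthesis, 2 receptor subunits and 10 regulators of the response. They also took in 8 ecdysone-inducible effectors and 11 genes of the Eig71E cluster. For juvenile hormone they were 3 genes of reception and response and 4 genes of breakdown. Each gene was found by its exact symbol in the annotated array table, where a cell with several symbols counted for each of them. All 46 were present, on 68 of 18952 probe sets, and the whole array named 13724 genes.

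The study silenced Ck1alpha, a casein kinase gene, in the larval fat body to follow how raised blood sugar affects feeding. Both groups were feeding mid-third instar larvae of crosses between Dcg-Gal4 females and either w1118 males, for the control larvae, or UAS-Ck1alphaRNAi males, for the Ck1alphaRNAi larvae. Both therefore carried the driver Dcg-Gal4, whose activity lies in fat body and blood cells. Larvae of each group, labelled as female, were kept at 25 °C with 75 to 150 larvae in a vial for 6 days, and the methods state that the Ck1alphaRNAi cultures were started earlier than the controls because their development was delayed. RNA of 20 whole larvae was pooled for 1 Affymetrix array per group. With 1 array per group no difference has a replicate check, no test was made, and an effect of the knockdown and a difference in developmental stage cannot be told apart. In whole larvae, fewer cells of a type and less RNA per cell cannot be told apart either.

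Ecdysone is made from dietary sterols in the prothoracic gland under the control of the brain peptide PTTH, and peripheral tissues such as the fat body convert it into 20-hydroxyecdysone. The active hormone binds a nuclear receptor of EcR and Ultraspiracle, which switches on a few early regulators, and these in turn act on late genes in each tissue. Small pulses in the last larval instar prepare the commitment to metamorphosis and, in the salivary gland, the making of glue proteins, before a large pulse starts pupariation. Juvenile hormone, from the corpora allata, keeps the larval program in place, and its removal by esterases and epoxide hydrolases is part of the same timetable.

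The unit throughout is the MAS5 signal, a linear brightness scaled within each array, and each ratio divides the signal of the Ck1alphaRNAi array by that of the control array. Signals are compared only within a probe set, apart from the sums given for the marker lists, in which the brightest probe sets weigh most. A gene is represented by its probe set with the highest mean signal over the arrays, and counts cover genes whose mean signal was at least 100. Over 9562 such genes the median log2 ratio was -0.01. Probe sets of 1 gene differed by an SD of 0.32 on the log2 scale, or 1.25-fold, over 407 genes with several. This spread comes from the same arrays, so it holds no error between arrays or between pools of larvae. A ratio beyond it is not thereby shown to be a difference between the groups. The highest of 17 tag controls, probe sets against artificial tag sequences, read 53.3 for Ck1alphaRNAi and 33.1 for the control. A signal below that level is taken as a bound, and a member below it on both arrays gets no fold. The silenced gene read 2055 in the Ck1alphaRNAi larvae against 2665 in the control, a ratio of 0.771.

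In Ck1alphaRNAi larvae the transcripts of the ecdysone receptor subunit EcR and the early regulator broad (br) were each at least 2-fold lower. So were those of the imaginal disc gene ImpE2 and the glue gene Eig71Ee. For br this holds for its brightest probe set but not for all of them. ImpE2 reached a mean of 100 only through its control signal. Most other measured hormone genes, among them usp, Eip75B, Hr39, ftz-f1 and Kr-h1, lay close to the control value. The juvenile hormone genes with a mean signal of at least 100 all lay within 1.5-fold of the control. Eip63E gave conflicting probe sets, of which the one annotated to it alone was 18.6-fold higher.

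Of the 46 genes, 23 had a mean signal of at least 100. Among these 23, 4 were at least 2-fold lower in Ck1alphaRNAi larvae, against 574 of all 9562 genes, or 6.00%. None of them was at least 2-fold higher, against 258 of all genes, or 2.70%, with Eip63E read from a probe set it shares with CG10038. With only probe sets of 1 gene, Eip63E was the 1 member at least 2-fold higher, against 2.60% of all genes so read. At 1.5-fold, 7 were lower, against 13.2% of all genes, and 1 was higher, against 7.09%. Lower by any amount were 16 of the 23, against 51.7% of all genes, and their median log2 ratio was -0.11. Of the 23 ratios, 10 were beyond 1 SD of the spread between probe sets and 13 were within it. The share of all genes beyond 1 SD was not counted, so the 10 cannot be set against it. ImpE2 and ImpL1 reached the mean of 100 only through their control signal. With a signal of at least 100 required on both arrays, 21 members remained. At least 2-fold lower were 3 of them, EcR, br and Eig71Ee, against 382 of 8965 genes, or 4.26%.

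**Figure D1:**
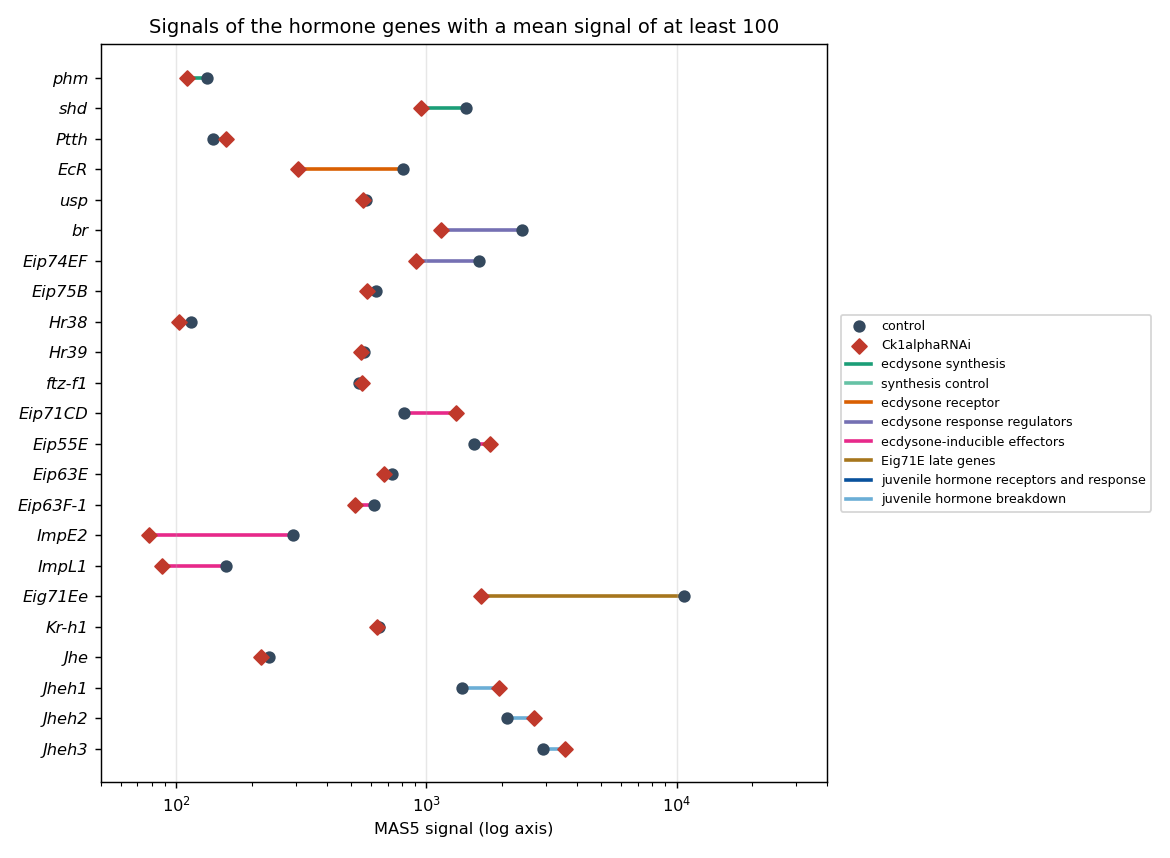
MAS5 signal on a log axis for each of the 23 hormone genes with a mean signal of at least 100, 1 array per group. Circles are control larvae, diamonds are Ck1alphaRNAi larvae, and the line that joins them has the colour of the gene's role. The lines of Eig71Ee, ImpE2, EcR and br are at least 2-fold long toward lower signal.

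**Figure D2:**
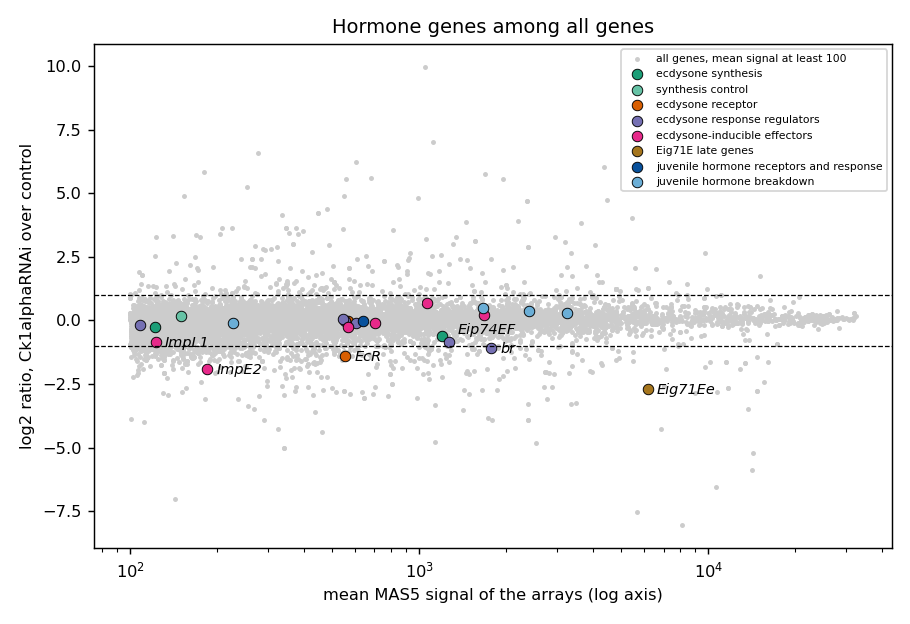
Log2 ratio of Ck1alphaRNAi over control against the mean MAS5 signal (log axis) for 9562 genes in grey, with the hormone genes coloured by role. Dashed lines mark 2-fold. 4 hormone genes lie below the lower line and none lies above the upper line.

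The ecdysone synthesis enzymes were weakly detected, except for the enzyme of the last step. The gene shade (shd) encodes the hydroxylase that turns ecdysone into 20-hydroxyecdysone in peripheral tissues. It read 950 in Ck1alphaRNAi larvae and 1440 in control larvae, 1.52-fold lower, with a log2 ratio of -0.60. A second shd probe set gave nearly the same ratio, with 251 against 375 and a log2 ratio of -0.58. The gland hydroxylase gene phantom (phm) read 111 and 133, a log2 ratio of -0.26 that is within the spread between probe sets.

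The other 4 enzyme genes had means under 100. The hydroxylase genes disembodied (dib) and shadow (sad) act in the gland. The dib signal was 43.5 in Ck1alphaRNAi and 44.6 in control larvae. The sad signal was 45.6 and 82.9, which is under the tag level on the Ck1alphaRNAi array and so at least 1.55-fold lower. Neverland (nvd) acts on the dietary sterol at the start of the pathway and read 28.8 and 39.5. The spook gene (spo) read 1.86 and 13.4, under the tag level on both arrays. All 4 were under the tag level of the Ck1alphaRNAi array, so that only sad, whose control signal was above the tag levels of both arrays, has a bound.

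Of the genes that control synthesis, Ptth, which encodes the brain peptide, read 159 in Ck1alphaRNAi larvae and 140 in the controls, with a log2 ratio of 0.18, within the spread between probe sets. Its receptor gene torso (tor) read 14.9 and 4.10, both under the tag level. Over the 3 synthesis and control genes with a mean of at least 100, the median log2 ratio was -0.26.

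The subunits of the ecdysone receptor gave unlike ratios, a difference that was not tested. The EcR gene, which encodes the hormone-binding subunit, read 307 in Ck1alphaRNAi larvae and 804 in control larvae. This is 2.62-fold lower, with a log2 ratio of -1.39, and more than 2 SD of the spread between probe sets. The usp gene, which encodes the partner Ultraspiracle, read 558 and 574, a log2 ratio of -0.04. Each subunit has 1 probe set on the array, so neither value could be set against a second one.

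Among the 10 response regulators, br and Eip74EF were lower, 4 genes of nuclear receptors were close to control, and the remaining 4 genes were under the tag level on both arrays. The br gene encodes zinc finger transcription factors of the early response, in isoforms that differ in their zinc fingers. Its probe set annotated to transcript RF read 1138 in Ck1alphaRNAi larvae and 2413 in control larvae, 2.12-fold lower, with a log2 ratio of -1.08. The other br probe sets did not all give this value. The probe set for transcript RA read 148 and 315, a log2 ratio of -1.09. The one for RE read 163 and 283, a log2 ratio of -0.80. The one for RC read 121 and 126, a log2 ratio of -0.06. All 4 of these had a mean of at least 100, and their ratios spanned 0.469 to 0.961, so that 3 of them were lower by more than 1 SD and RC was not. The probe set for RD had a mean of 91.9, with 72.8 against 111 and a log2 ratio of -0.61. The probe sequences were not used here, so isoforms were not compared. A sixth probe set carries the symbol CG11509, which the RefSeq gene table lists as another name of br. It is not counted here, and read 181 and 317, 1.75-fold lower, with a log2 ratio of -0.81.

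The early gene Eip74EF, which encodes an ETS-domain transcription factor, read 910 in Ck1alphaRNAi larvae and 1617 in control larvae, 1.78-fold lower, with a log2 ratio of -0.83. Its second probe set was dim, with 67.6 and 75.6 and a log2 ratio of -0.16, so that the lower value of Eip74EF rests on 1 probe set.

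The other regulators with a mean of at least 100 stayed within 1 SD of the spread between probe sets. Eip75B, an early gene for a heme-binding nuclear receptor, read 581 and 627, a log2 ratio of -0.11. All 4 of its probe sets had log2 ratios between -0.16 and 0.03. Hr39, which encodes an orphan nuclear receptor, read 546 and 560, and its 3 brighter probe sets had log2 ratios from -0.29 to 0.04. The competence factor gene ftz-f1 read 554 in Ck1alphaRNAi larvae and 535 in the controls, with a log2 ratio of 0.05, and its second probe set gave 0.12. Hr38, for a nuclear receptor that can pair with Ultraspiracle, read 102 and 115, a log2 ratio of -0.16, and its second probe set, at 45.7 and 19.9, was under the tag level on both arrays.

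Eip78C, Eip93F, Hr46 and Hr4 were under the tag level on both arrays. These genes encode further nuclear receptors and, for Eip93F, a regulator of the larval to pupal change. Their signals ran from 2.12 to 12.1 in Ck1alphaRNAi larvae and from 2.91 to 30.1 in control larvae, and no fold is given. Over the 6 regulators with a mean of at least 100, the median log2 ratio was -0.14 and the range -1.08 to 0.05.

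**Figure D3:**
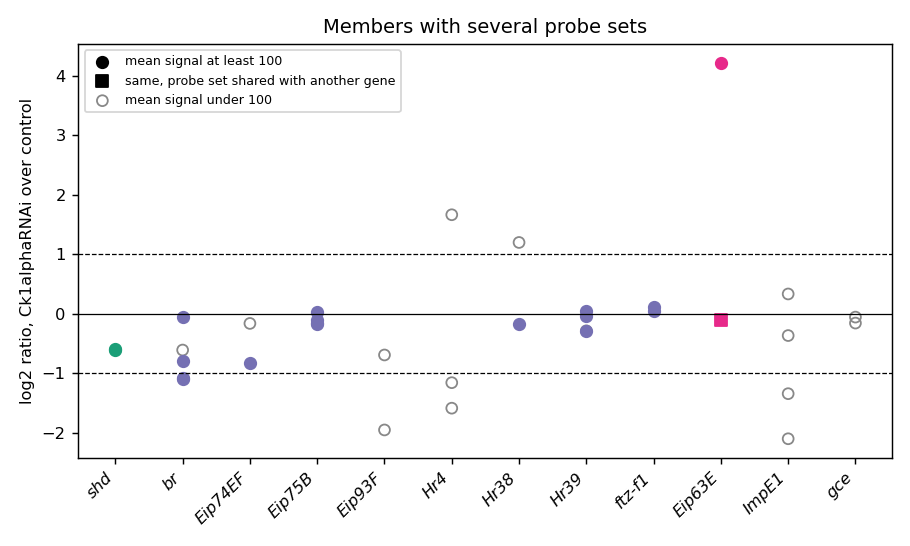
Log2 ratio of Ck1alphaRNAi over control for each probe set of the hormone genes that have several. Filled circles have a mean signal of at least 100, the square is the probe set Eip63E shares with CG10038, open circles are dimmer, and dashed lines mark 2-fold. The probe sets of shd, Eip75B and ftz-f1 lie close together, those of br span -1.09 to -0.06, and those of Eip63E lie at -0.10 and 4.22.

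The ecdysone-inducible effectors went both ways. These genes were isolated because the hormone raises their transcripts in cultured cells or imaginal discs, and they encode enzymes, a kinase and membrane or secreted proteins. ImpE2, a disc gene whose transcripts are found on membrane-bound polysomes, read 78.0 in Ck1alphaRNAi larvae and 292 in control larvae, 3.74-fold lower, with a log2 ratio of -1.90. ImpL1, the late counterpart, read 87.8 and 157, 1.79-fold lower, with a log2 ratio of -0.84. ImpE1, which encodes a protein with lipoprotein receptor repeats, read 34.7 and 87.9, at least 1.65-fold lower because the Ck1alphaRNAi signal was under the tag level. Its remaining probe sets were under the tag level on both arrays. ImpE3 read 67.8 and 81.2. ImpE2 and ImpL1 were the Imp genes with a mean of at least 100, and both reached it through the control array.

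The Eip genes of this group gave another picture. Eip71CD, which encodes a methionine sulfoxide reductase, read 1314 in Ck1alphaRNAi larvae and 811 in control larvae, 1.62-fold higher, with a log2 ratio of 0.70. Its ratio was the highest among the 23 genes by the rule of 1 probe set per gene. Eip55E, for the cysteine-forming enzyme cystathionine gamma-lyase, read 1788 and 1552, a log2 ratio of 0.20. Eip63F-1, for a calcium-binding EF-hand protein, read 516 and 618, a log2 ratio of -0.26. The latter values are within the spread between probe sets.

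Eip63E, which encodes a cyclin-dependent kinase, gave conflicting probe sets. The one with the higher mean is shared with CG10038 and read 676 in Ck1alphaRNAi larvae and 727 in the controls, a log2 ratio of -0.10. The one annotated to Eip63E alone, to its transcript RD, read 1223 and 65.8, 18.6-fold higher, with a log2 ratio of 4.22. This probe set reached the mean of 100 only through its Ck1alphaRNAi signal. Of the 9681 probe sets with a mean of at least 100, 20 had a ratio at least as high, itself included. The value of Eip63E therefore depends on the probe set, and the reason was not tested. Its neighbour along the chromosome in the RefSeq table is ImpE2, and on the other side lies CG10359, which read 1438 and 858. Over the 6 effectors with a mean of at least 100, with Eip63E at its shared probe set, the median log2 ratio was -0.18.

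In the Eig71E cluster only Eig71Ee was above the tag level. The cluster lies in a late puff of the salivary gland chromosomes, and most of its genes are paired, divergent late genes that encode small secreted peptides. Eig71Ee, also called gene VII, differs from them in that it encodes a glue protein made by the salivary gland in the mid-third instar. It read 1656 in Ck1alphaRNAi larvae and 10703 in control larvae, 6.46-fold lower, with a log2 ratio of -2.69, which was the lowest of the 23 genes. The other 10 genes of the cluster were under the tag level on both arrays, from 1.47 to 21.6 in Ck1alphaRNAi larvae and from 0.616 to 24.4 in control larvae. For 7 of these 10 the Ck1alphaRNAi signal was the lower one, but at this level the order of the signals carries no measurement. CG43084, a gene that lies between Eig71Eb and Eig71Ec and is not one of the 46, read 230 and 594, a ratio of 0.388, and was named after its values were seen.

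**Figure D4:**
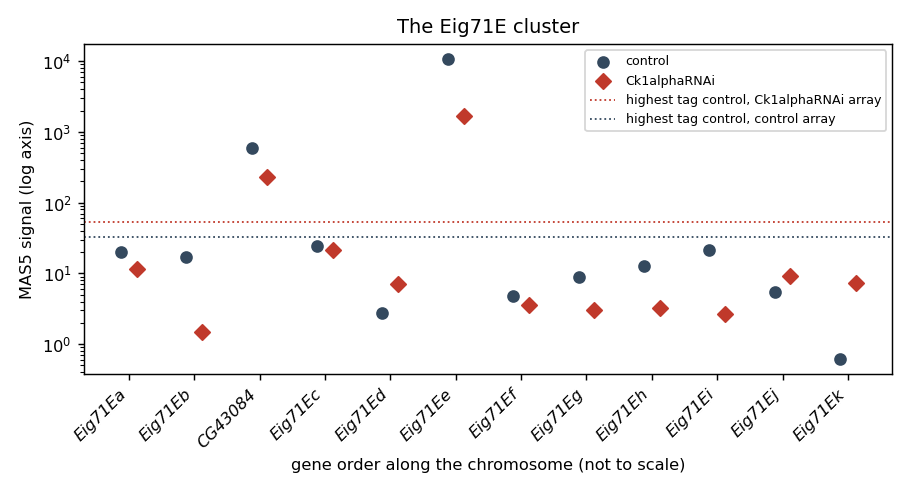
MAS5 signal on a log axis for the genes of the Eig71E cluster and CG43084, in their order along the chromosome in the RefSeq table (not to scale). Circles are control larvae, diamonds are Ck1alphaRNAi larvae, and dotted lines are the highest tag control of each array. Eig71Ee and CG43084 lie above the lines and the remaining 10 genes lie below both.

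Transcripts that mark the salivary gland were lower beside Eig71Ee. Of 10 listed salivary gland genes with a mean of at least 100, Eig71Ee itself included, 7 were past 2-fold toward lower signal, and the list had a median log2 ratio of -2.17. All 6 glue genes of the Sgs family were among them. Sgs1 read 222 and 3362, or 15.2-fold lower. Sgs8 read 2170 and 15879, or 7.32-fold lower. Sgs4 read 2692 and 18786, or 6.98-fold lower. Sgs7, the least changed of the family, was 3.08-fold lower at 7866 against 24200. The new glue genes of the same gland, in contrast, were not lower: ng3 read 14956 and 14900, and the probe set shared by ng1 and ng2 read 12278 and 11099. The list's summed signal was 64392 in Ck1alphaRNAi larvae and 156597 in control larvae, and ng4, at 2.30 and 1.53, was its only gene under the tag level on both arrays.

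Transcripts that mark the fat body, a tissue of the knockdown, were lower as well. Of 10 fat body genes, 8 were past 2-fold toward lower signal. The list had a median log2 ratio of -3.24 and a summed signal of 23689 against 150241. The storage protein gene Lsp2 read 475 and 27757, Lsp1alpha read 61.2 and 11255, and Fbp2 read 60.8 and 16099. The least changed of the 8, Rfabg, read 7994 and 21504, or 2.69-fold lower. FASN1, at 10268 and 17445, was lower but not past 2-fold. Lsp1alpha, Fbp2 and Ilp6, the last at 97.3 and 574, reached the mean of 100 only through their control signal. For Fbp1, which encodes a receptor for storage proteins, the probe set shared with CG5335 read 1577 and 1217, whereas the one annotated to Fbp1 alone read 88.1 and 2290. With only probe sets of 1 gene, 9 of the 10 fat body genes were past 2-fold toward lower signal, with a median log2 ratio of -4.10. Ring gland genes were dim: of 9, 3 had a mean of at least 100, and the summed signal of the list was 693 and 986. Testis genes were present in larvae labelled as female, for instance Mst98Ca at 866 and 1443 and Mst87F at 271 and 682. Muscle genes, at 100226 and 91217 summed, had a median log2 ratio of 0.12, and none of the 5 was past 2-fold.

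Other marker lists differed in direction: some blood cell and gut genes were at least 2-fold higher, and some epidermis and cuticle genes lower. Of 7 blood cell genes, which mark the other tissue of the driver, 3 were at least 2-fold higher, none was at least 2-fold lower, and the median log2 ratio was 0.21. NimC1 read 477 in Ck1alphaRNAi larvae and 62.6 in the controls, He read 2988 and 558, and PPO3 read 297 and 10.1, at least 8.97-fold higher. NimC1 and PPO3 reached the mean of 100 only through their Ck1alphaRNAi signal. Among 6 gut genes, 4 were past 2-fold toward higher signal and 0 toward lower, with a median of 1.42. These were Jon44E at 23191 and 6917, Mal-A1 at 633 and 195, Try29F at 185 and 84.3, and Amy-d, on a probe set shared with another gene, at 4202 and 569. Try29F reached the mean of 100 only through its Ck1alphaRNAi signal. Of 6 genes of the epidermis and cuticle, 2 were at least 2-fold lower and none at least 2-fold higher, with a median of -0.73. These were Cpr49Ac at 620 and 6075 and Lcp2 at 4969 and 15312. Neuron and imaginal disc genes, with 3 and 5 above the mean of 100, had none past 2-fold. The part of these tissue differences in the values of EcR, br, shd and the effectors was not tested.

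The juvenile hormone genes showed no difference of 2-fold. Kr-h1, the zinc finger gene that answers the hormone and holds back metamorphosis, read 635 in Ck1alphaRNAi larvae and 647 in the controls, a log2 ratio of -0.03. The receptor genes were dim. Methoprene-tolerant (Met) read 50.3 and 75.4, at least 1.41-fold lower because its Ck1alphaRNAi signal was under the tag level. Its paralog germ cell-expressed (gce) read 79.9 and 83.0, and its second probe set read 54.6 and 60.8.

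None of the 4 breakdown genes of juvenile hormone was past 1.5-fold, and differences between them were not tested. The esterase gene Jhe read 218 and 235, a log2 ratio of -0.11. The epoxide hydrolase genes, which lie next to each other in the order Jheh1, Jheh2 and Jheh3, each had a ratio above 1. Jheh1 read 1946 and 1386, a log2 ratio of 0.49 and a ratio of 1.40. Jheh2 read 2681 and 2098, a log2 ratio of 0.35 and a ratio of 1.28. Jheh3 read 3589 and 2919, a log2 ratio of 0.30 and a ratio of 1.23. Jheh1 and Jheh2 were beyond 1 SD of the spread between probe sets and Jheh3 was just within it. Of the flanking genes, CG18190 read 225 and 364, a ratio of 0.619. CG43069, on the other side, read 86.5 and 122, a ratio of 0.709, and reached the mean of 100 only through its control signal. Over the 5 juvenile hormone genes with a mean of at least 100, the median log2 ratio was 0.30, and over the 4 breakdown genes it was 0.33.

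**Figure D5:**
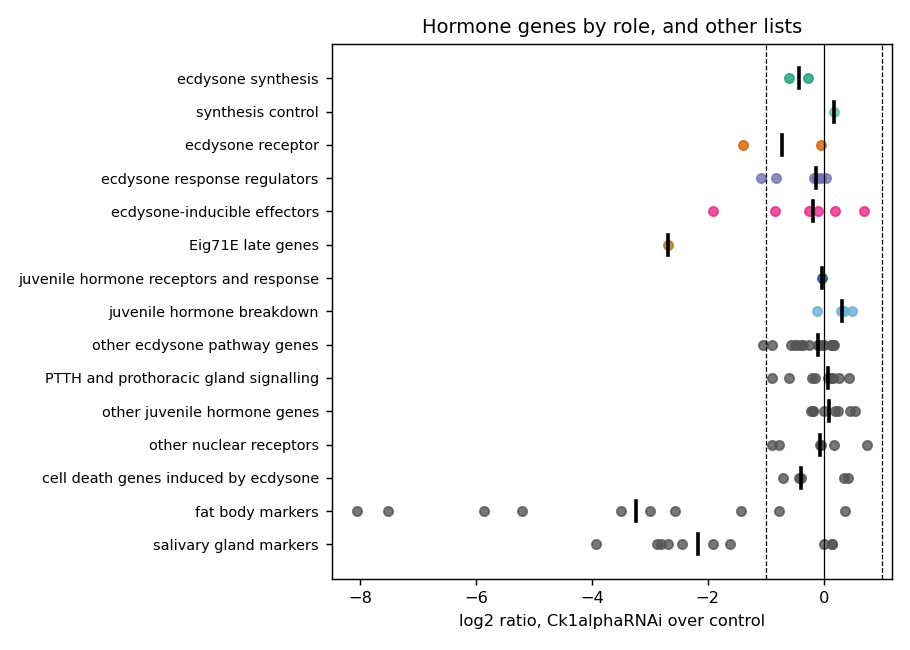
Log2 ratio of Ck1alphaRNAi over control for genes with a mean signal of at least 100, by role for the hormone genes (coloured) and for other lists of genes (grey). Each point is a gene, the short black bar is the median of the list, and dashed lines mark 2-fold. The fat body and salivary gland markers have medians of -3.24 and -2.17, and the juvenile hormone breakdown genes have 0.33.

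Other genes of the same pathways were set beside the 46. Of 21 further ecdysone genes, 17 had a mean of at least 100, with a median log2 ratio of -0.09. Of these 17, 1 was at least 2-fold lower, against 6.00% of all genes, and none was at least 2-fold higher, against 2.70%. The gene that passed was spookier (spok), the larval relative of spo in the synthesis pathway, at 138 in Ck1alphaRNAi larvae and 286 in control larvae, 2.07-fold lower, with a log2 ratio of -1.05. The synthesis gene shroud (sro), named after its values were seen, read 4.06 and 153, at least 2.87-fold lower, and its mean of 78.6 left it out of the counts. Other synthesis genes of the list mostly lay within the spread between probe sets. The log2 ratio was 0.18 for dare, 0.16 for ecd, 0.13 for Fdxh and 0.00 for mld. It was -0.24 for Npc1a and -0.35 for Start1, the last just beyond the spread. The dim ouib read 44.7 and 57.1, at least 1.07-fold lower. Lower by any amount were 11 of the 17, against 51.7% of all genes.

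The remaining lists had no gene past 2-fold in either direction. Of 14 genes of PTTH and prothoracic gland signalling, 9 had a mean of at least 100, with a median log2 ratio of 0.08. Of 11 further juvenile hormone genes, 10 were on the array and 8 had a mean of at least 100, with a median of 0.10. Of 12 other nuclear receptors, 6 had a mean of at least 100, with a median of -0.06. Of 7 cell death genes that ecdysone induces, 6 were on the array and 5 had a mean of at least 100, with a median of -0.39 that turned to 0.19 with only probe sets of 1 gene. Among the nuclear receptor genes with a mean of at least 100, members and others, EcR was the only one at least 2-fold lower. Of all genes, 6.00% were at least 2-fold lower. Of the 6 other nuclear receptors, 2 were past 1.5-fold toward lower signal, against 13.2% of all genes. These were kni, at 86.2 and 159, and svp, at 406 and 688. The mean of kni reached 100 only through its control signal. Toward higher signal 1 was past 1.5-fold, Hr96 at 958 and 570, against 7.09% of all genes.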

How the data were processed

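RNA of 20 pooled whole larvae per group was hybridized to 1 Affymetrix Drosophila 2 array per group. Per the labels RNA was extracted with Trizol, while the methods name a kit for the arrays. The deposited values are linear signal intensities, 1 per probe set and array, which the authors made with MAS5, version 5, according to the submitters' processing notes. A second deposited table held the same values. The deposited fold change is the authors' own comparison and was not used. For detection calls, scaling target and genome build, nothing was given in the sources used here, and no coordinates or sequences are printed. The trimmed mean of each array, with 2% left out at each end, was 500. Signals of at least 100 were read by 49.7% of Ck1alphaRNAi and 52.0% of control probe sets.

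Of 18952 probe sets, 183 were Affymetrix controls, 3773 had no symbol, 14183 had 1 gene and 812 had several, and the last counted for each gene. Older symbols were resolved through the RefSeq gene table (Release 6 plus ISO1 MT), except for the 46 genes, which were matched by exact symbol. Log2 ratios were computed with no pseudocount or rescaling. The number of arrays limits the precision, and no p-value is given. Where 1 signal was under the highest tag control of its array, the bound sets that signal to the tag control. Named genes were every hormone gene with a mean of at least 100 and, of the other lists, genes past 2-fold, at most 4 per list, each with both signals. CG11509, CG43084, CG10359, CG18190, CG43069, the dim hormone genes and the marker genes within 2-fold and Fbp1 were named after their values were seen. So were Rfabg, sro, dare, ecd, Fdxh, mld, Npc1a, Start1, ouib, kni, svp and Hr96. The members and lists were chosen with earlier results of these data known. The ratio computation and its scalings were tested on simulated data. Alternatives were median centring, quantile normalization, loess with a span of 0.3, a pseudocount of 16, other filters, other choices of probe set and the second table. For the other lists, the count from probe sets of 1 gene was added after seeing the data. Computation used numpy 2.4.6 and pandas 2.3.3 in Python 3.11.15, loess came from statsmodels 0.14.6, and figures were drawn with matplotlib 3.10.9.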

Additional observations from a re-analysis of the deposited data

How the results depend on the processing

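The array number per group, 1, sets the main limit, and low signals set the other, since 23 of the 46 genes had a mean under 100. No paired analysis was possible because each group has 1 array, and leaving out a replicate was not possible for the same reason. The 10 alternatives were run for the counts past 2-fold, for the medians of synthesis, receptor, ecdysone response and juvenile hormone genes, and for each hormone gene. Of these medians the juvenile hormone one changed sign, and was -0.028 over all its genes with no filter on dim probe sets against 0.30. With no filter, 12 of 46 hormone genes were at least 2-fold lower and 3 higher, against 4 and 0. Over all genes 1500 were lower, or 10.9%, and 777 higher, or 5.66%, against 574 and 258. These counts take in the 16 hormone genes under the tag level on both arrays, whose folds carry no measurement. All 3 higher ones, tor, Eig71Ed and Eig71Ek, were among them. So were spo, Eip78C, Hr4, Eig71Eb, Eig71Eg, Eig71Eh and Eig71Ei of the lower ones. With a mean of at least 200, the synthesis median was -0.60 against -0.26, from shd alone, and 362 of 7705 genes, or 4.70%, were lower. With at least 100 on both arrays, a filter chosen after the data were seen, 382 of 8965 genes, or 4.26%, were lower. With the median over a gene's probe sets, 1 hormone gene, Eip63E, was at least 2-fold higher, at 2.06 on the log2 scale. Eip74EF was at -0.49, br at -0.80 and Hr38 at 0.52, so that Eip63E and Hr38 turned direction. With this choice the turn of Hr38 came from its second probe set, which was under the tag level on both arrays and carries no fold. From its brightest probe set, Hr38 also turned, to 0.08 with quantile normalization and 0.03 with loess, against -0.16. With only probe sets of 1 gene, 1 was higher, again Eip63E, at 4.22. EcR kept log2 ratios of -1.39 to -1.34 and Eig71Ee of -2.75 to -2.68 in all 10 alternatives, br was past 2-fold in 9 of 10, and ImpE2, from -1.90 to -1.71, in the 8 that kept it.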
